A study of Mus musculus with 549 samples.

Results

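Cartilage of the loaded left tibia was compared between mice that had received parathyroid hormone (PTH) and mice that had received vehicle before 1 week of joint loading. The comparison takes the left limbs of the groups PV1 and VV1 in the week 1 cartilage table, which is 15 of the 59 libraries in that table and 15 of the 549 samples described for the series. PV1 mice (n = 8) were given PTH (1-34), the active fragment of the hormone, under the skin for 8 weeks on 5 days a week, and then saline vehicle into the abdomen during the loading week. VV1 mice (n = 7) were given saline vehicle in both periods. All were male C57BL/6J mice, 18 weeks old at the first injection and 27 weeks old at harvest. The left tibia was loaded cyclically at a peak of 9 N and 4 Hz for 1200 cycles a day, 5 days a week, under isoflurane anaesthesia, and the right limb was the contralateral control. No mouse of either group received PTH during the loading week, so the comparison asks what was left of the pretreatment in loaded cartilage. Each library came from 1 limb of 1 mouse and samples were not pooled.

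PTH acts through PTH1R, a G protein-coupled receptor that raises cyclic AMP and, through protein kinase A and CREB, switches on immediate early genes such as the Fos, Jun and Nr4a families. In cartilage the receptor is found mainly on prehypertrophic chondrocytes, where its local ligand PTHrP holds back hypertrophy. Intermittent PTH builds bone, and repeated tibial compression of this kind is used as a model of load-induced joint damage.

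The libraries were made from the 3' ends of transcripts, and each held between 685630 and 2374301 recovered reads. The RNA carried the markers of cartilage: 23 of the 25 cartilage matrix and chondrocyte genes on the list passed the filter on low values, and together they made up 0.221% to 0.913% of the normalised signal in the PTH libraries and 0.380% to 0.659% in the vehicle libraries. It also carried markers of neighbouring tissue and of marrow. Bone and fibrous matrix genes such as Col1a1 were abundant, and neutrophil genes made up 1.46% to 5.22% of the signal. The libraries of 2 mice stood apart from the other 13 on the first 2 principal components, which carried 38.8% and 18% of the variance. Vehicle replicate 7 was the shallowest library, with 685630 reads and a read for 11667 genes. PTH replicate 6 had 1934723 reads but a read for only 11687 genes, against 11936 to 13785 in the other PTH libraries. The other vehicle libraries had a read for 13970 to 14179 genes, so every PTH library lay below them. The part of this in the differences of low genes was not tested. Neither of the 2 libraries that stood apart was left out of the main test. The difference of a gene or the median of a list is given again for the 13 other libraries where it moved by over 1.5 times.

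**Figure D1:**
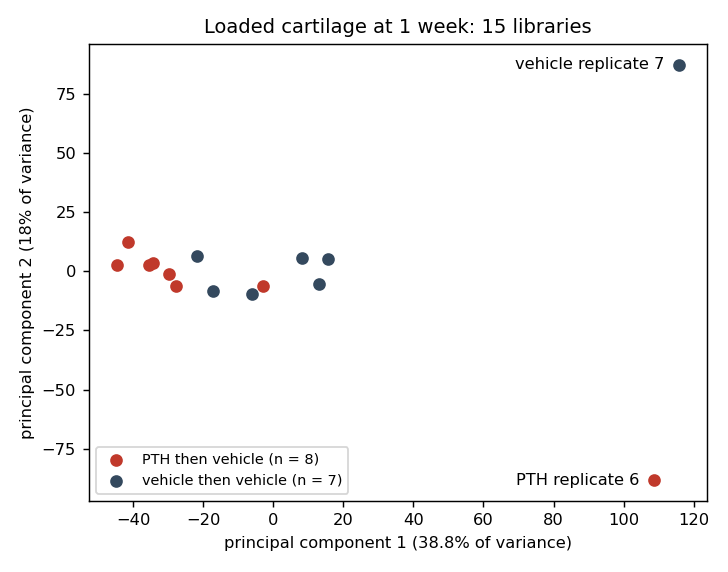
Scores of the 15 loaded cartilage libraries on principal component 1 (x axis, 38.8% of variance) and principal component 2 (y axis, 18% of variance), 1 point per library, coloured by pretreatment. PTH replicate 6 and vehicle replicate 7 lie far to the right, at 108.59 and 115.67 on component 1, and at opposite ends of component 2.

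No gene separated PTH from vehicle in loaded cartilage once all genes were taken into account. Of 14729 genes tested, 0 passed an adjusted p of 0.05 in limma with Benjamini-Hochberg adjustment (0% called), and the smallest adjusted p was 0.102. At an unadjusted p under 0.05 there were 596 higher genes (4.05%) and 685 lower genes (4.65%), 1281 in all (8.7%). edgeR's quasi-likelihood test on the recovered reads also called 0, with 1300 genes at an unadjusted p under 0.05. DESeq2 called 3: Ier2 higher, Swi5 and Nrd1 lower. The median log2 difference over all genes was -0.04, with a median standard error of 0.42 per gene, so differences of about that size lay within the error of a typical gene.

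The count differed with library weights, and not when the 2 libraries that stood apart were left out. When limma weighted each library by how well it matched its group, these 2 received weights of 0.215 and 0.204 against 0.461 to 3.12 for the others, and 529 genes passed (3.59%), 242 higher (1.64%) and 287 lower (1.95%). All 529 had the same sign in the unweighted test, and 433 of them had an unadjusted p under 0.05 there. The weights of the other 13 libraries changed as well, so the cause of the higher count was not tested. With both libraries left out, 0 of 14706 genes passed, the smallest adjusted p was 0.641, and 1009 genes had an unadjusted p under 0.05. Leaving out only vehicle replicate 7 gave 600 such genes, and leaving out only PTH replicate 6 gave 2018. The weighted calls are therefore given beside the unweighted values in what follows, as calls of that alternative and not of the main test.

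The gene with the clearest difference among well-measured genes was Ier2, an immediate early gene that encodes a short-lived nuclear regulator (chromosome 8, 84661331 to 84662852, minus strand, GRCm38). Its log2 normalised count ranged from 5.85 to 7.02 with a median of 6.41 in the 8 PTH libraries, and from 2.91 to 5.43 with a median of 5.12 in the 7 vehicle libraries. Every PTH library was above every vehicle library. The difference was 1.52 ± 0.32 (SE; adjusted p = 0.102, limma) and 1.19 ± 0.31 in the 13 libraries, and it passed with library weights (1.26, adjusted p = 0.00803, limma). Klf2, a zinc finger transcription factor known for its part in endothelial cells and lymphocytes, was higher by 0.85 ± 0.23 (adjusted p = 0.37, limma), from a vehicle median of 7.63 to a PTH median of 8.59, and its groups overlapped.

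Other genes of small p encode proteins of general cell function. Slc35a5, a member of the nucleotide sugar transporter family, ranged from 4.58 to 5.88 with PTH and from 3.53 to 4.76 with vehicle, a difference of 1.15 ± 0.31. Pigu, a subunit of the enzyme that attaches GPI anchors to proteins, was higher by 1.60 ± 0.40, but 1.03 ± 0.35 in the 13 libraries, since vehicle replicate 7 was listed at 0. Psmb2, a core subunit of the proteasome, was higher by 1.31 ± 0.36, while Psmc1, an ATPase of the proteasome cap, was lower by -0.95 ± 0.25. Subunits of the same complex thus pointed both ways. All 4 passed with library weights, with adjusted p-values of 0.00845 to 0.0163 (limma).

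On the lower side the smallest p-value among well-measured genes belonged to Swi5, a protein of homologous recombination repair (chromosome 2, 32278816 to 32288075, minus strand). It ranged from 6.67 to 7.57 with PTH and from 7.67 to 8.81 with vehicle, so that every PTH library was below every vehicle library, and differed by -1.03 ± 0.23 (adjusted p = 0.126, limma). Prmt1, an arginine methyltransferase, also had groups that did not overlap, at 6.39 to 6.95 with PTH and 7.22 to 7.86 with vehicle, a difference of -0.78 ± 0.21. Hmox1, the enzyme that breaks down heme (chromosome 8, 75093621 to 75100589, plus strand), had a median of 5.34 with PTH and 6.74 with vehicle. Its difference was -1.70 ± 0.39 (adjusted p = 0.219, limma), and 1 PTH library, replicate 2, lay at 2.10 while the other 7 lay between 4.96 and 6.25. Slc43a1, an amino acid transporter known from developing red cells, had a median of 3.30 with PTH and 5.18 with vehicle, a difference of -2.19 ± 0.61, and its groups overlapped by a narrow margin. Myl10, a myosin light chain, had the smallest p-value of all genes (8.23e-06, unadjusted; adjusted p = 0.102, limma) at a very low level: it was listed at 0 in 7 of 8 PTH libraries, lay at 0.94 in replicate 8, and lay between 0.80 and 3.81 with vehicle.

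Over all genes, groups that did not overlap were rare. They were found for 19 genes (0.129%), of which 11 were higher with PTH (0.0747%) and 8 lower (0.0543%). Besides Ier2, Pigu, Swi5 and Prmt1 these included Tkt, an enzyme of the pentose phosphate pathway, at 6.69 to 8.02 with PTH and 8.04 to 9.27 with vehicle, and Slc38a1, a glutamine transporter, at 7.12 to 8.46 with PTH and 5.07 to 7.05 with vehicle. Slc38a1 differed by 0.86 ± 0.27, and by 0.46 ± 0.25 in the 13 libraries. Tkt and Slc38a1 were picked for mention after their values were seen.

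**Figure D2:**
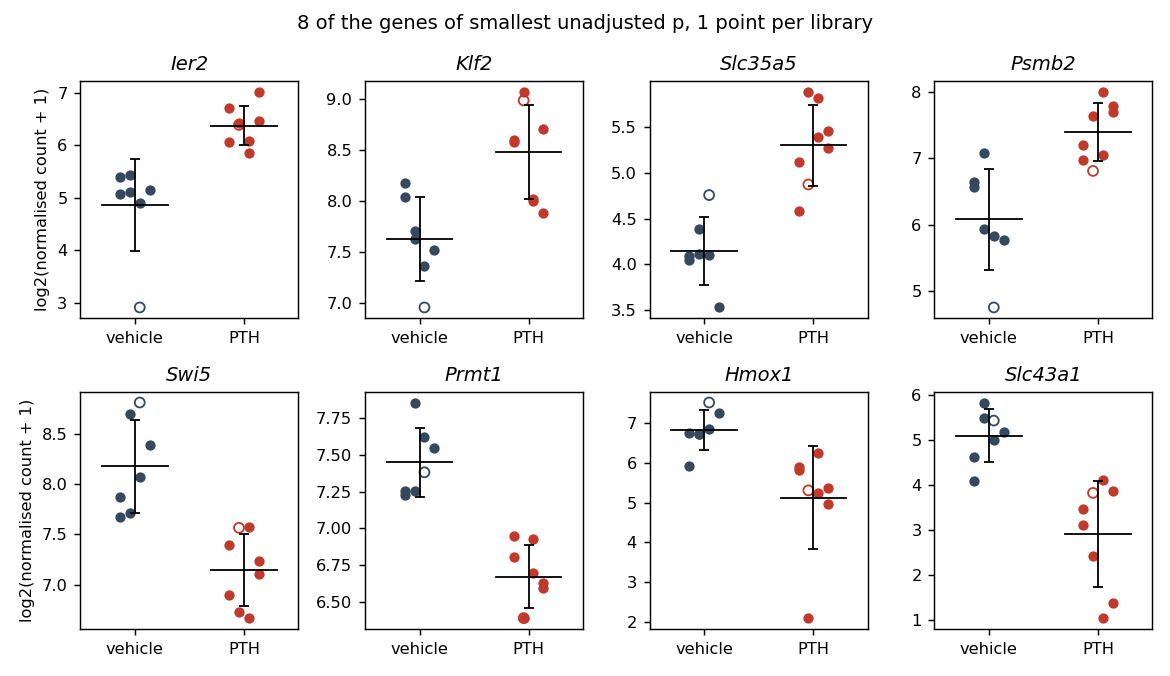
Log2(normalised count + 1) of 8 genes of small unadjusted p (y axes, which do not start at 0) in vehicle and PTH libraries, 1 point per library, with the group mean and SD. Open points are vehicle replicate 7 and PTH replicate 6. Ier2, Swi5 and Prmt1 do not overlap between groups, and vehicle replicate 7 lies lowest for Ier2, Klf2 and Psmb2.

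The receptor itself did not differ between groups by the test, and its interval included 0. Pth1r (chromosome 9, 110722085 to 110747145, minus strand) ranged from 7.22 to 9.10 with a median of 8.46 with PTH, and from 8.50 to 9.11 with a median of 8.77 with vehicle. The difference was -0.31 ± 0.24 with a 95% interval of -0.80 to 0.18, and -0.09 ± 0.25 in the 13 libraries. Of the list of PTH and cyclic AMP targets, 29 of 32 members were tested, 0 passed in either direction, 20 differences were positive, and their median was 0.36 beside -0.04 for all genes. The member of smallest p was Nr4a1, an orphan nuclear receptor induced within minutes by cyclic AMP. It had a median of 5.95 with PTH and 4.03 with vehicle, a difference of 1.52 ± 0.72 (adjusted p = 0.556, limma), and the 2 libraries that stood apart held the lowest value of each group, 0.96 and 0.

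The immediate early list, which shares Nr4a1, Fos, Fosb and Jun with the PTH list, showed the most one-sided positive differences of the signalling lists described here. Of its 25 tested members 21 had a positive difference, with a median of 0.36 (0.47 in the 13 libraries), 3 had an unadjusted p under 0.05 on the higher side against 4.05% of all genes, and 0 passed. With library weights 4 passed, all higher, against 1.64% of all genes. The summed level of the list made up 0.114% to 0.284% of the signal with PTH and 0.103% to 0.182% with vehicle, so the groups overlapped. Immediate early genes also respond to the handling of tissue, and the part of that in these values was not tested.

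None of the structural genes of cartilage passed in the main test. Acan, the main cartilage proteoglycan, had a median of 10.10 with PTH and 8.74 with vehicle. PTH replicate 6 lay at 6.48, far below the other 7 PTH libraries at 9.18 to 10.31. The Acan difference was 0.73 ± 0.44 (adjusted p = 0.651, limma) and 1.00 ± 0.41 without the 2 libraries (unadjusted p = 0.0183 from the same limma model), and it did not pass with library weights (adjusted p = 0.0697, limma). Col2a1, the collagen of hyaline cartilage, differed by -0.03 ± 0.38 with an interval of -0.79 to 0.73, and by 0.01 ± 0.37 in the 13 libraries. Sox9, the master regulator of chondrocytes, differed by 0.25 ± 0.34 with an interval of -0.43 to 0.93, and by 0.43 ± 0.35 in the 13 libraries. For Comp, a matrix protein that binds collagens, the difference was -0.46 ± 0.43, and 0.06 ± 0.43 in the 13 libraries. Over the list, 16 of 23 tested members had a positive difference, with a median of 0.18 (0.13 in the 13 libraries), and 0 passed.

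Genes of the joint surface and of mineralising cartilage gave the same count of 0 passing. Prg4, the lubricin of the joint surface, ranged from 11.40 to 14.62 with PTH and from 12.53 to 13.86 with vehicle, a difference of 0.29 ± 0.50 with an interval of -0.71 to 1.30, and 0.46 ± 0.52 in the 13 libraries. Tgfbr2, a TGF-beta receptor counted in the surface list, was higher by 0.66 ± 0.33 and passed with library weights (0.74, adjusted p = 0.0475, limma). Of 13 surface genes 10 had a positive difference, with a median of 0.29 (0.45 in the 13 libraries). Col10a1, the collagen of hypertrophic chondrocytes, differed by 0.36 ± 0.51 and its interval ran from -0.65 to 1.37. PTH replicate 6 was its lowest library at 6.22, and in the 13 libraries the difference was 0.77 ± 0.51. Spp1, the mineral-binding protein osteopontin, had a median of 12.05 with PTH and 10.86 with vehicle, a difference of 0.83 ± 0.38 (adjusted p = 0.542, limma) that passed with library weights (0.97, adjusted p = 0.0184, limma). The hypertrophy list as a whole was even, with 9 of 18 members positive and a median of 0.00, or 11 of 18 and 0.26 in the 13 libraries.

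**Figure D3:**
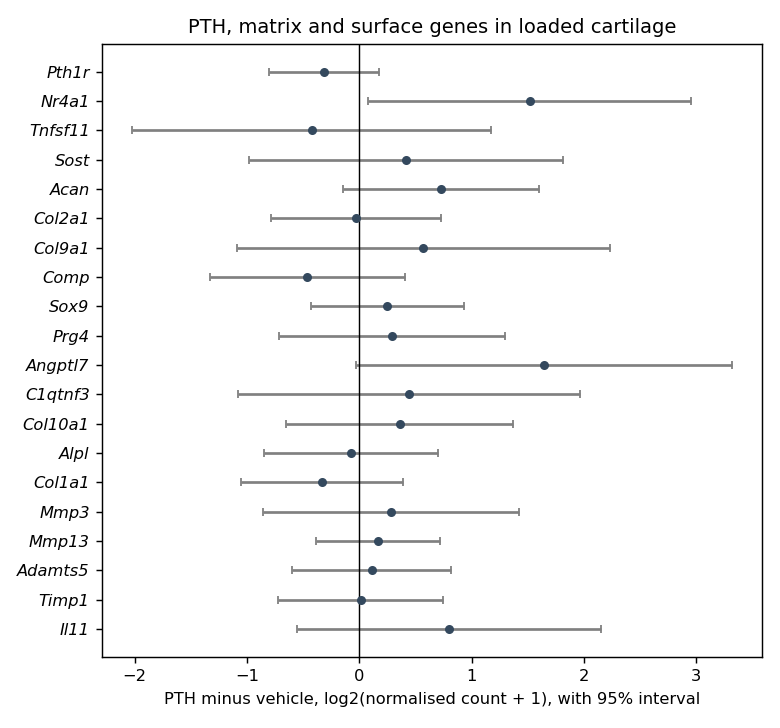
Difference between PTH and vehicle in loaded cartilage (x axis, log2 scale) with 95% intervals from limma for 20 genes of PTH signalling, cartilage matrix, joint surface and matrix breakdown. The interval of Nr4a1 lies just above 0, and no adjusted p in the plot is under 0.05.

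Enzymes that break down matrix and their inhibitors were close to even. Mmp13, the main collagenase of cartilage, ranged from 8.96 to 11.41 with PTH and from 8.45 to 11.36 with vehicle, a difference of 0.17 ± 0.28 with an interval of -0.39 to 0.72, and 0.07 ± 0.22 in the 13 libraries. Plau, the urokinase plasminogen activator, was higher by 1.37 ± 0.52 (adjusted p = 0.461, limma; 1.24 and adjusted p = 0.0416 with library weights). Of 26 tested members 15 had a positive difference, with a median of 0.08, or 20 of 26 and 0.28 in the 13 libraries. Fibrous matrix genes moved in the same way between the 2 sets of libraries: 18 of 28 were positive with a median of 0.12 over 15 libraries, and 25 of 28 with a median of 0.48 over 13. PTH replicate 6 held the lowest summed level of this list, 1.73% of its signal against a group median of 8.48%.

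Growth factor pathways held single genes of small p and no call. Chrd, a secreted inhibitor of BMPs, was higher by 1.52 ± 0.64 (adjusted p = 0.484, limma) but by 1.11 ± 0.66 in the 13 libraries. Wif1, a secreted Wnt inhibitor, had a median of 8.20 with PTH and 7.48 with vehicle, a difference of 0.83 ± 0.41. Igfbp3, a binding protein of insulin-like growth factors, was higher by 1.22 ± 0.56 and its groups overlapped widely, at 3.09 to 7.41 and 2.09 to 7.18. Pdgfra, a growth factor receptor of fibroblasts and mesenchymal progenitors, was higher by 1.15 ± 0.41 (adjusted p = 0.448, limma) and passed with library weights (1.15, adjusted p = 0.0194, limma). The lists themselves were near even over 15 libraries: 19 of 34 Wnt genes, 18 of 35 BMP and TGF-beta genes and 7 of 14 genes of the IGF axis were positive, with medians of 0.08, 0.01 and 0.06. That evenness did not hold in the 13 libraries, where 24 of 33, 24 of 35 and 9 of 14 were positive, with medians of 0.24, 0.26 and 0.38, and again no gene passed.

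The eosinophil, neutrophil and erythroid lists lay on the lower side. Of the 8 eosinophil genes tested 7 had a negative difference, with a median of -0.76. The same held for 13 of 14 neutrophil and myeloid precursor genes, with a median of -0.59, and for 10 of 10 erythroid genes, with a median of -0.31. Over all genes 46.6% were positive and the median was -0.04. No member passed, and 2, 2 and 1 of these genes had an unadjusted p under 0.05 on the lower side, against 4.65% of all genes. Without the 2 libraries the medians were -0.88, -0.64 and -0.50. With library weights 3 eosinophil, 0 neutrophil and 2 erythroid genes passed, all lower, against 1.95% of all genes. Over 15 libraries the other blood cell lists lay nearer to all genes. Of these, 5 of 15 platelet, 5 of 13 B cell and 6 of 13 T cell and natural killer cell genes were positive, with medians of -0.19, -0.23 and -0.06. In the 13 libraries 4 of 15, 3 of 13 and 3 of 13 were positive, with medians of -0.27, -0.51 and -0.29. The B cell median was then as low as the erythroid one.

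Single genes show the overlap behind these medians. Epx, the eosinophil peroxidase, ranged from 5.12 to 8.44 with a median of 6.72 with PTH, and from 6.94 to 9.03 with a median of 8.27 with vehicle, a difference of -1.30 ± 0.44 (adjusted p = 0.448, limma). Slc4a1, the anion exchanger of the red cell membrane, ranged from 7.29 to 10.32 with PTH and from 9.06 to 11.19 with vehicle, a difference of -1.18 ± 0.41. Elane, the neutrophil elastase, differed by -0.85 ± 0.36. S100a8, the calcium-binding protein that neutrophils carry in bulk, ranged from 13.00 to 15.18 with PTH and from 14.13 to 15.28 with vehicle, a difference of -0.75 ± 0.37. Most PTH libraries lay below the vehicle median for these genes, and the highest PTH libraries lay inside the vehicle range.

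Summed levels were read over the tissue piece as a whole, and the groups overlapped for each list. Neutrophil genes made up 1.46% to 4.96% of the signal with PTH (median 2.88%) and 3.16% to 5.22% with vehicle (median 4.01%). Eosinophil genes made up 0.0662% to 0.322% with PTH (median 0.119%) and 0.115% to 0.353% with vehicle (median 0.224%). Erythroid genes made up 0.0841% to 0.353% with PTH (median 0.231%) and 0.199% to 0.517% with vehicle (median 0.265%). Hba-a1 and Hba-a2, the alpha globins, were listed at 0 in every one of the 15 libraries, as was Eno1, a glycolytic enzyme that all cells use, so no level is read from them. In bulk tissue, fewer cells of a type and less RNA per cell cannot be told apart, and the part of marrow in the other differences was not tested.

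Markers of other cells were less one-sided. Of 16 osteoclast genes 4 were positive, with a median of -0.22, or 2 of 16 and -0.34 in the 13 libraries. Of 17 macrophage and dendritic cell genes 8 were positive, with a median of -0.02 (-0.21 in the 13 libraries), yet Csf1r, the receptor of macrophage colony stimulating factor, was lower by -0.62 ± 0.24 and passed with library weights (-0.65, adjusted p = 0.0354, limma), and C1qb, a complement subunit, was lower by -0.58 ± 0.22. Mki67, a marker of dividing cells, differed by -0.75 ± 0.32 (adjusted p = 0.491, limma), with 11 of 25 proliferation genes positive over 15 libraries (median -0.07) and 6 of 25 over 13 (median -0.33). Skeletal muscle genes had a median of -0.15 with 8 of 23 positive, -0.55 with 4 of 23 positive in the 13 libraries, and they made up 0.0260% to 0.323% of the signal with PTH and 0.00962% to 2.50% with vehicle. With the level of the muscle list as a covariate the main test again called 0 genes.

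**Figure D4:**
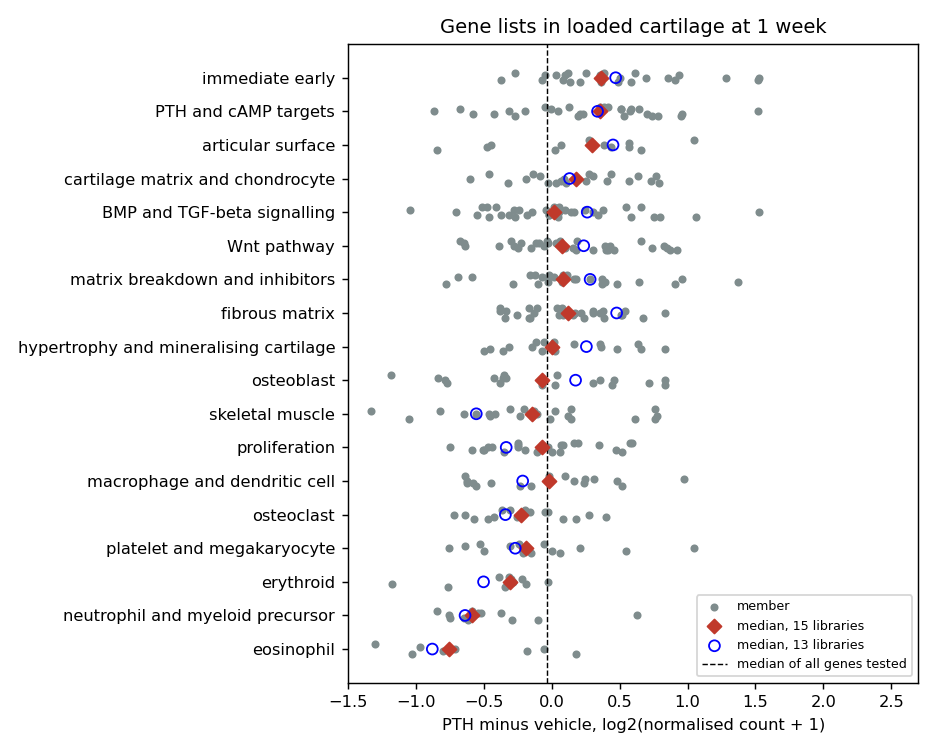
Differences between PTH and vehicle (x axis, log2 scale) of the tested members of 18 gene lists, 1 grey point per gene, with each list's median over 15 libraries (diamond) and over the 13 without PTH replicate 6 and vehicle replicate 7 (open circle). The dashed line is the median of all genes tested, -0.04. Eosinophil, neutrophil and erythroid lists lie to the left of it, and the immediate early list to the right.

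Ribosomal protein genes were examined after their values were seen, because Rpl23, a protein of the large subunit, stood among the genes of smallest p (0.65 ± 0.17, and 0.40 ± 0.16 in the 13 libraries). Of 81 tested, 65 were positive, against 46.6% of all genes, with a median of 0.25, and 29 had an unadjusted p under 0.05 on the higher side, against 4.05% of all genes. The direction of the list differed between the other comparisons. Its median was 0.06 in the contralateral limb (51 of 81 positive, against 41% of all genes) and 0.01 with alendronate (44 of 81, against 43%). It was -0.10 at 2 weeks (27 of 81, against 44.6%) and -0.16 before loading (16 of 81, against 40.5%). In the 13 libraries 59 were positive with a median of 0.17, and 17 had such a p on the higher side, against 416 of all 14706 genes. With library weights 12 passed, all higher, against 1.64% of all genes. The mean log2 level of the list lay between 9.10 and 9.46 with PTH and between 8.45 and 9.24 with vehicle. Ndufa4, a component of the respiratory chain, was higher by 1.36 ± 0.45, and by 1.00 ± 0.44 in the 13 libraries, while the respiration list had 13 of 28 members positive (9 of 28 in the 13 libraries).

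The other limb of the same mice was used to ask whether the difference belonged to the loaded side. In contralateral cartilage, PTH against vehicle gave 7 genes that passed (0.0475%), all lower, among them Myl10 (-2.35, adjusted p = 0.0315, limma) and Sdha, a subunit of succinate dehydrogenase (-0.72, adjusted p = 0.0368, limma). Skeletal muscle genes made up 0.0330% to 7.85% of the signal in the vehicle contralateral libraries and 0.0313% to 1.06% in the PTH ones. With the muscle level as a covariate 0 genes passed in the contralateral limb. The count was also 0 with only the groups compared, so the part of muscle in the 7 calls cannot be told from this. The test of the difference between limbs called 0 genes (0%), with 581 at an unadjusted p under 0.05 (3.94%) and 0 called by edgeR. Ier2 differed by 0.75 ± 0.32 in the contralateral limb, and the difference between limbs was 0.77 ± 0.44 (adjusted p = 0.999, limma). Hmox1 differed by -0.44 ± 0.39 there, with a difference between limbs of -1.27 ± 0.54, and Epx by -0.19 ± 0.44, with a difference between limbs of -1.10 ± 0.61. The 3 genes of smallest p in this test were Lypd6, Sdha and Zswim8, and none had an adjusted p under 0.999.

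Mice given alendronate, a bisphosphonate that blocks bone resorption, during the loading week form another pair of loaded groups, PA1 (PTH first, n = 7) and VA1 (vehicle first, n = 8), that shares no library with the first. Among them PTH against vehicle in the loaded limb also called 0 genes (0%), with 856 at an unadjusted p under 0.05 (5.81%), while edgeR called 1. The test of whether the difference itself changed with alendronate called 0 (0%), with 574 at an unadjusted p under 0.05 (3.9%) and 0 called by edgeR. Ier2 differed by -0.02 ± 0.32 and Hmox1 by -0.02 ± 0.39 in the alendronate mice. Slc43a1 differed by -1.67 ± 0.61 and Angptl7, an angiopoietin-like protein secreted by tendon and joint tissue, by 1.75 ± 0.84. At 2 weeks of loading (PV2 and VV2, n = 8 each, 28 weeks old), in a table normalised separately, 0 genes passed (0%) and 471 had an unadjusted p under 0.05 (3.15%), with 774 in edgeR and 0 called.

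Signs were compared with these independent mice. Of the 1281 genes at an unadjusted p under 0.05 here, 904 had the same sign in the alendronate mice (70.6%, against 57.1% of all genes). Of the 1274 that were also tested at 2 weeks, 1011 had the same sign there (79.4%, against 62.9%). Genes are not independent of each other, so these shares are a description. Of 14544 genes tested in all of them, 4 had an unadjusted p under 0.05 in every one of the 3 loaded comparisons, where 8.7%, 5.81% and 3.15% of all genes had one, and all 4 had the same direction. So few genes are given as a description, with no test. App, the amyloid precursor protein of the cell membrane, was higher by 0.82 ± 0.29 here, 0.66 ± 0.29 with alendronate and 0.68 ± 0.34 at 2 weeks. Ctsd, a lysosomal protease, was lower by -0.48 ± 0.17, -0.47 ± 0.17 and -0.76 ± 0.22. Gpnmb, a membrane glycoprotein of macrophages and osteoclasts, was lower by -0.64 ± 0.29, -1.17 ± 0.29 and -0.87 ± 0.38, and Slc43a1 by -2.19 ± 0.61, -1.67 ± 0.61 and -1.18 ± 0.48. In the 13 libraries Gpnmb differed by -0.39 ± 0.30 (unadjusted p = 0.202 from the same limma model), which takes it out of the 4. App, Ctsd and Gpnmb were picked after their values were seen.

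Carryover was read from genes that differed with PTH at the end of pretreatment, before any loading, in other mice that were 26 weeks old. That comparison, of both limbs of 8 PTH and 8 vehicle mice, called 10 genes higher (0.0794%) and 10 lower (0.0794%). In loaded cartilage a week later 7 of the 10 higher genes were still positive, with a median of 0.12, and 10 of the 10 lower genes were negative, with a median of -0.54. In the 13 libraries the medians were 0.45 and -0.67. None passed. Angptl7 had the largest difference before loading and kept the largest here, 2.42 ± 0.49 before and 1.64 ± 0.84 after, with a median of 6.74 in PTH libraries and 5.01 in vehicle libraries. Alpl, the phosphatase of mineralising cells, was higher by 1.05 ± 0.23 before loading and differed by -0.07 ± 0.39 here, with an interval of -0.85 to 0.70, and by 0.33 ± 0.36 in the 13 libraries. The Alpl difference was 0.79 ± 0.39 in the contralateral limb, 1.08 ± 0.39 in the loaded limb with alendronate and 0.17 ± 0.47 at 2 weeks. Prg2, the eosinophil major basic protein, differed by -1.60 ± 0.33 before and -0.80 ± 0.41 here. Ltf, the lactoferrin of neutrophil granules, differed by -1.32 ± 0.28 before and -0.60 ± 0.35 here.

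The comparison before loading held 2 libraries of 3630 and 52539 reads. With these left out it called 1095 genes higher (8.62%) and 763 lower (6.01%), which gives a fuller view of what remained. Of the 763 lower genes 612 were negative here (80.2%), against 52.6% of the 12660 genes tested in both, and their median difference was -0.89 before and -0.30 here. Of the 1094 higher genes that were tested here 670 were positive (61.2%, against 47.4%), and their median was 0.96 before and 0.11 here. At an unadjusted p under 0.05, 111 of the lower genes were lower here (14.5%, against 4.76%) and 57 of the higher genes higher (5.21%, against 4.53%). Without the 2 libraries that stood apart, 91 of the 763 lower genes and 872 of the 1094 higher genes were positive, with medians of -0.39 and 0.28. An unadjusted p under 0.05 was then found on the lower side for 145 of the 763, against 516 of the 12660, and on the higher side for 72 of the 1094, against 389 of the 12660. None passed here on its own. In the contralateral limb of the same mice, 311 of the 763 lower and 614 of the 1094 higher genes were positive. The medians of the lower and higher genes there were -0.08 and 0.08, against -0.11 for all genes, of which 41% were positive. In the loaded limb with alendronate 213 and 736 were positive (against 43% of all genes), with medians of -0.17 and 0.16. At 2 weeks 93 and 778 were positive (against 44.6%), with medians of -0.42 and 0.23. Since the genes were chosen for their difference before loading, a median nearer to 0 in other mice follows from that choice, and no loss over the loading week is read from it.

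**Figure D5:**
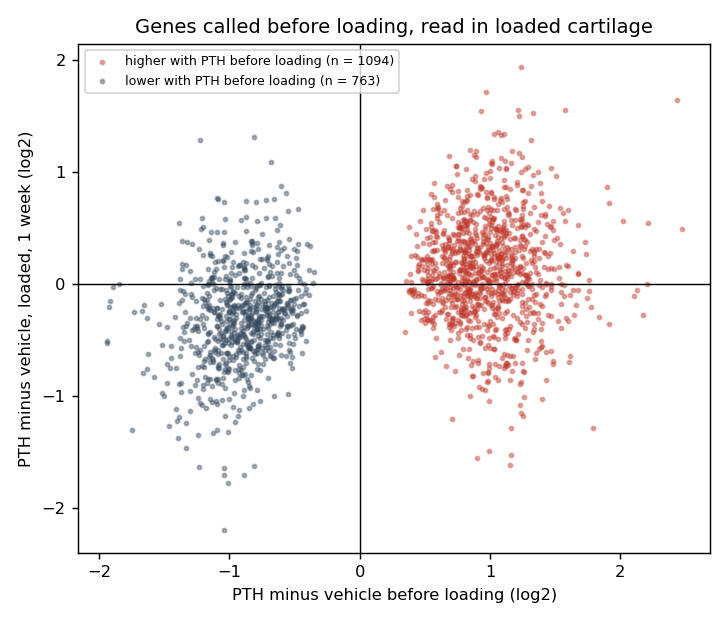
Difference between PTH and vehicle in cartilage before loading (x axis, log2 scale) and in loaded cartilage at 1 week (y axis, log2 scale) for the genes called before loading with libraries under 100000 reads left out, 1 point per gene, 1094 higher and 763 lower. Of the genes lower before loading 612 lie below 0 on the y axis, and of the higher genes 670 lie above it.

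Blood cell lists held many of their members among the genes lower before loading. All 9 erythroid, 12 neutrophil and 7 eosinophil genes that were called lower before loading had a negative difference here. The whole lists were not lower in every other comparison. In the contralateral limb 6 of 10 erythroid, 9 of 14 neutrophil and 2 of 8 eosinophil genes were positive. In the loaded limb with alendronate these counts were 1, 8 and 0, and at 2 weeks 1, 0 and 1. Of the 12 platelet genes called lower before loading 9 were negative here, and the median of that list was -1.38 before and -0.19 here. Of the 16 proliferation genes called lower before loading, 10 were negative. Among all genes called lower before loading 80.2% were negative here. On the higher side, 61.2% of all genes called higher before loading were positive here. The counts were 9 of 10 for surface genes, 11 of 15 for BMP and TGF-beta genes and 6 of 9 for Wnt genes. They were 8 of 15 for fibrous matrix, 5 of 10 for osteoblast, 4 of 8 for hypertrophy and 4 of 9 for synovium and fibroblast genes. Single genes called before loading and of unadjusted p under 0.05 here included Hmox1 (-0.89 before and -1.70 here), Pdgfra (0.88 and 1.15), Wif1 (1.01 and 0.83), Spp1 (0.76 and 0.83) and Chrd (1.33 and 1.52). These before values are from the fit without the shallow libraries. Ier2 was not called before loading, and differed by -0.09 ± 0.39 there in the fit with all libraries.

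Loading itself was defined in vehicle mice at 2 weeks, where the loaded limb differed from the contralateral one in 142 higher genes (0.95%) and 28 lower genes (0.187%). In PTH against vehicle at 1 week these genes were even over 15 libraries: 72 of the 142 were positive, with a median of 0.01, and 13 of the 28, with a median of -0.02, while in the 13 libraries 110 of the 142 and 12 of the 28 were positive, with medians of 0.26 and -0.17. None passed, and 4 had an unadjusted p under 0.05, all among the 142 and all lower with PTH. That is a smaller share than the 4.65% of all genes that were lower at such a p. The lowest difference among the 142 was that of Gjc1, a gap junction connexin, at -1.04 ± 0.62 (adjusted p = 0.646, limma), or -0.20 ± 0.58 in the 13 libraries. Among the 28, Rbm38, an RNA-binding protein, differed by 0.91 ± 0.69 (adjusted p = 0.741, limma), or 0.11 ± 0.59 in the 13 libraries. In the alendronate mice 18 of the same 142 genes were positive, against 43% of all genes, with a median of -0.24 against -0.06.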

How the data were processed

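The deposited values are a normalised signal, described by the authors as normalised read counts, in 1 column per library. The submitters' processing notes name Trimmomatic 0.39, STAR, edgeR and the mm10 build, with no order or role, and the counter is not given in the sources used here. Libraries came from a 3' kit, per the labels' protocols. Within each library the deposited values were whole multiples of 1 step (100% within 0.01), which gave the read counts, except in 2 week 1 libraries whose step was within 1% of 1 and which were left out of count tests. Entries that name no gene (27) were dropped, at most 0.194% of reads at week 1. Columns not used numbered 0.

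Genes of at least 1 CPM in as many libraries as the smallest group were kept. limma 3.58.1 (R 4.3.3) with trend was fitted to log2(value + 1) over all 8 groups of 59 week 1 cartilage libraries, with the animal as random block (correlation 0.0592; animals read from runs of 14 library codes in the titles), 2-sided, Benjamini-Hochberg over 14729 genes. Differences are on that scale and understate changes of low genes. edgeR 4.0.16 and DESeq2 1.42.0 on recovered reads, other scalings, pseudocounts, filters, weights and left-out libraries were alternatives; the scripts were tested on simulated data. Counts of PTH against vehicle in loaded or in contralateral cartilage compare libraries of separate mice. The counts before loading and those between limbs hold both limbs of the same mice. Replicate pairs within the left limbs of PV1 and of VV1 differed by at least 5.75 in chi-square per degree of freedom. Named genes were those of smallest p (10 each way at a log2 level of 3 or more), 2 of each list, a fixed set of 19, 3 for each interaction and the extremes of the carried-over genes. The members and lists were chosen with earlier results of these data known. Leaving out the 2 libraries that stood apart, and the detailed reading of the genes called before loading without shallow libraries, were chosen after seeing the data. Gene positions are from GENCODE M21.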

Additional observations from a re-analysis of the deposited data

Results flagged for a closer look

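Among 46 genes read in both loaded groups, 92 sets of values were examined for 1 library far from the others of its group, which chance alone gives in about 1 of 20 sets, and 20 such values were found. PTH replicate 6 held the lowest log2 normalised count of its group for Nr4a1 (0.96), Spp1 (8.78), Tgfbr2 (5.27), Alpl (4.01), Acan (6.48), Sox9 (7.11), Col10a1 (6.22), Wif1 (5.98), Thbs1 (5.34) and App (7.63), and the highest for Ctsd (10.76). Vehicle replicate 7 held the lowest for Ier2 (2.91), Pigu (0), Nr4a1 (0), Spp1 (8.69), Mmp13 (8.45) and Ndufa4 (4.11). PTH replicate 2 held the lowest value for Hmox1 (2.10) and the highest for Gpnmb (7.91). PTH replicate 8 held the only value of Myl10 above 0 in its group (0.94).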

How the results depend on the processing

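The count of 0 genes for PTH against vehicle in loaded cartilage was 3 with DESeq2, 529 with library weights and 0 to 1 with each library left out; vehicle replicates 3 and 6 and PTH replicate 4 gave the 1. The contralateral count of 7 was 107 with edgeR, 135 with DESeq2, 11 with TMM scaling, 3 with quantile scaling, 11 with either other pseudocount, 589 with library weights, 122 with a replicate block, 0 with the muscle covariate, 0 with only the groups compared, and 0 to 106 with libraries left out (0 without contralateral vehicle replicate 5 or 7 or PTH replicate 4, 62 and 106 without vehicle replicates 3 and 4). In alendronate mice the count of 0 was 1 with edgeR, 8 with DESeq2, 1 with quantile scaling and with either other pseudocount, 3 with library weights, and 0 to 2 with libraries left out. The test of a change with alendronate gave 27 with DESeq2, and the 2-week count was 1122 with library weights. The cause was not tested. With a replicate block the loaded comparison called 0 genes, with 1101 at an unadjusted p under 0.05. Libraries of the same number correlated at -0.132 to 0.369 over 7 pairs, and 3 vehicle libraries correlated best with their own number. So few pairs cannot decide whether the numbers pair the mice. Depth was lowest in vehicle replicate 7, at 685630 reads, and genes below a log2 level of 3 rest on few reads.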
